A study of Mus musculus with 6 samples.

Results

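The 4 *Id* genes (*Id1*, *Id2*, *Id3* and *Id4*) were examined for open chromatin in adult neural stem cell (NSC) cultures that lack the *Srr2* enhancer of *Sox2*. Peaks were taken from 6 ATAC-seq peak lists wherever they overlapped the body of one of these genes or the 50 kb on either side of it, which gave 192 peaks over the 6 libraries. Merging peaks that overlapped by 1 bp or more gave 43 regions, out of 119719 regions in the whole genome. The regions of each window were numbered along the chromosome, so that *Id1* region 7 is the seventh of its window.

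All 6 libraries came from cultures of the brain subependymal zone of mice aged 10 weeks, and all carried the same CRISPR-Cas9 mutation of the *Sox2* SRR2 enhancer (*Srr2* del/del). The 3 PROLIF libraries (replicates 1, 2 and 4) were from cells kept for 2 days in vitro with mitogens, as their sample labels state, while the series design text gives 3 days for the proliferating cultures. The 3 DIFF libraries (replicates 1, 2 and 4) were from cells that had, after those 2 days, spent 1 day without mitogens in medium with 2% fetal bovine serum. Since no wild-type library was used here, no value below bears on the effect of the enhancer deletion itself, and how many animals gave each culture was not stated in the sources used here. The comparison asks how accessibility around the *Id* genes differs between proliferating cells and cells at the onset of differentiation.

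ID proteins are helix-loop-helix proteins without a DNA-binding basic region. They pair with E proteins such as TCF3, TCF4 and TCF12 and thereby keep basic helix-loop-helix activators such as the neurogenins from binding E-boxes. *Id1*, *Id2*, *Id3* and *Id4* are classical targets of bone morphogenetic protein (BMP) signalling through SMAD1 and SMAD5, and in the adult subependymal zone ID proteins are known for sustaining the stem cell state and astroglial character. ATAC-seq measures where a transposase can insert into chromatin, and a peak is a stretch where reads pile up above the surroundings. It reports accessibility and not expression.

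The libraries differed in depth. Their background pileup, which scales with the depth of a library, ran from 2.85 to 2.97 reads in PROLIF and was 3.63, 2.96 and 6.01 reads in DIFF replicates 1, 2 and 4, with 59792 to 87728 peaks used per list. The labelled cell type was checked at promoters, defined as the 3 kb on either side of any annotated start site. A promoter peak was present in every library for all 10 markers of neural stem and progenitor cells and for the 4 astrocyte markers, against 64.4% of all 21938 protein-coding genes. *Dcx*, *Sox10*, *Cx3cr1*, *Cldn5* and *Cdh5*, which mark neurons, oligodendrocytes, microglia and endothelium, had no promoter peak in any library. With these counted, 2 of 4 markers for neurons, 2 of 4 for oligodendrocytes, 2 of 5 for microglia and 1 of 4 for endothelium had one in all 6.

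Some of the sequences are shown first, because the later results return to them. The summit-centred windows of *Id1* region 7, which lay 1090 bp upstream of the *Id1* start site, and of *Id4* region 2, which lay 33306 bp upstream of the *Id4* start site, are printed because they held the same run of letters. Capitals mark GGCGCC (a GC-rich site described for SMAD proteins), the SMAD box CAGAC on either strand (in the *Id1* sequence only) and TGACGTCA (the cyclic AMP response element, CRE). In *Id4* region 2 they also mark TGAATCA (an AP-1 site of the form TGANTCA) and the E-box CAGCTG, which overlaps it. A SMAD box on the minus strand of *Id4* region 2, at −97 bp from the summit, is left in lower case.
Id1 region 7, GRCm38 chr2:152735061-152735261, plus strand: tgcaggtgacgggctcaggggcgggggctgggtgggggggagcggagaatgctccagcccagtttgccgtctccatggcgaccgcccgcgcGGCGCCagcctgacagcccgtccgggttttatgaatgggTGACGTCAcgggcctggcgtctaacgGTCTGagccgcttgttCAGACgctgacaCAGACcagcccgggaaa
Id4 region 2, GRCm38 chr13:48227822-48228022, plus strand: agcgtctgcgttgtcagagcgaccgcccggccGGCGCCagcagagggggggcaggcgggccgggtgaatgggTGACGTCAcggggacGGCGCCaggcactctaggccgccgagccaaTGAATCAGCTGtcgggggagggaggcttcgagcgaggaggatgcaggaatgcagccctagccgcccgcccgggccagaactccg
Both held tgaatgggtgacgtcacggg, a run of 20 bases around the CRE that started 22 bp after the summit in *Id1* region 7 and 36 bp before it in *Id4* region 2. Over the 903 pairs of *Id*-window regions the median longest shared run was 8 bases, and the longer run of 25 bases between *Id1* regions 9 and 11 was a simple repeat of TG. Of the 119719 summit windows of the genome, 2 held the run of 20 bases, and these were the 2 regions printed here. This pair was singled out after its sequence was seen.

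The promoter of *Id4*, the gene with the fewest regions, is shown as the stretch upstream of its RefSeq start site, with the NF-Y box CCAAT and the SP box GGGCGG, both on the minus strand, and with GGCGCC, marked by capitals.
Id4 promoter, RefSeq, GRCm38.p6 chr13:48260866-48261115, plus strand: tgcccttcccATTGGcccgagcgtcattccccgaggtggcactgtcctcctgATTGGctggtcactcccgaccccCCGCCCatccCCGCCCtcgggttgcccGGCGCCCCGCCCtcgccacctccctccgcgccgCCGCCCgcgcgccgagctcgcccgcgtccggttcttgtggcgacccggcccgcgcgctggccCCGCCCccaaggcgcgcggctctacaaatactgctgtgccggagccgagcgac
RefSeq promoter windows (250 bases before to 50 after the start site) were given for *Id2*, *Id3* and *Id4*, and not for *Id1*. The *Id4* window held 5 SP boxes, 2 NF-Y boxes and 1 GGCGCC. The *Id2* window held 3 NF-Y boxes, 1 GGCGCC, 1 SP box and 1 E-box CAGCTG. The *Id3* window held 2 SMAD boxes and 2 overlapping SP boxes. Among the 32851 RefSeq promoters, 35.7% held an SP box, 37.4% an NF-Y box and 49.6% a SMAD box, counting both strands. GGCGCC was in 11.9% of them and CAGCTG in 16.3%.

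The 4 windows differed widely in how many regions they held. *Id1* (ENSMUSG00000042745.9, chr2:152736251-152737410, plus strand) had 16 regions and *Id3* (ENSMUSG00000007872.3, chr4:136143497-136145755, plus strand) had 13. *Id2* (ENSMUSG00000020644.9, chr12:25093799-25097140, minus strand) had 9 and *Id4* (ENSMUSG00000021379.2, chr13:48261228-48266026, plus strand) had 5. The *Id1* window thus carried 15.8 regions per 100 kb, more than the windows of 97.1% of protein-coding genes, and the *Id3* window 12.7 per 100 kb, more than 91.3%. The *Id2* window, with 8.71 per 100 kb, exceeded 70.3% and the *Id4* window, with 4.77 per 100 kb, exceeded 34.9%, against a median of 6.35 over all protein-coding genes.

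**Figure D1:**
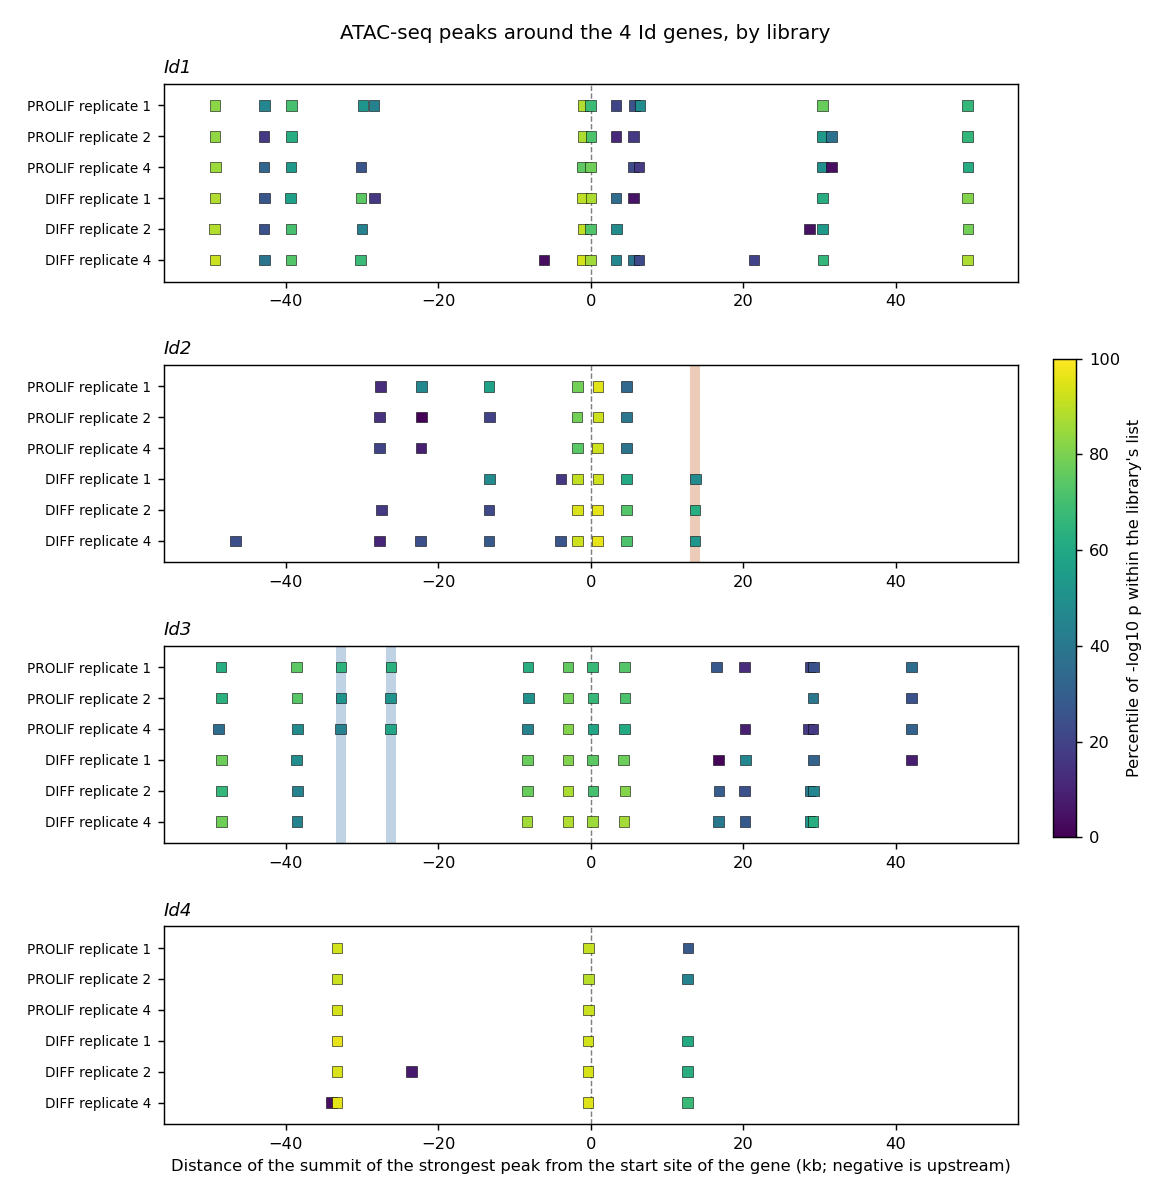
Position of the strongest peak of each region in each of the 6 libraries, as the distance of its summit from the start site of the gene in kb (horizontal axis), with colour giving the percentile of its −log10 p within the list of its library. Shaded bands mark the 2 PROLIF-only regions upstream of *Id3* and the DIFF-only region downstream of *Id2*, and the *Id1* and *Id3* windows hold most of the regions.

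Of the 43 regions, 19 (44.2%) had a peak in all 6 libraries, against 33.5% of all merged regions. *Id1* and *Id3* had 7 each, *Id2* had 3 and *Id4* had 2. Another 6 regions had a peak in 1 library only, against 29.6% of all merged regions, and these were 4 in DIFF replicate 4, the deepest library, and 2 in DIFF replicate 2. Of the 43, 26 were more than 3 kb from any annotated start site. The share of all merged regions that far from a start site is not given here. The median region was 473 bp wide, against 322 bp over all merged regions.

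The numbers of peaks overlapped between the states in each window. The *Id1* window held 12, 10 and 11 peaks in PROLIF replicates 1, 2 and 4 and 11, 10 and 14 in DIFF replicates 1, 2 and 4. The *Id2* window held 6, 6 and 5 in PROLIF and 6, 7 and 9 in DIFF, the *Id3* window 13, 10 and 12 in PROLIF and 10, 10 and 11 in DIFF, and the *Id4* window 3, 3 and 2 in PROLIF and 3, 4 and 4 in DIFF. Per 10000 peaks of a list, which scales the number by the length of the list, *Id3* was the one gene whose states did not overlap. It had 1.57, 1.505 and 2.01 in PROLIF and 1.41, 1.42 and 1.25 in DIFF (difference −0.34, or −0.18 without PROLIF replicate 4, two-sided exact permutation p = 0.1). This is the smallest p that 3 libraries against 3 can give, and no comparison of single values below could reach 0.05. With 25 kb on either side in place of 50 kb the *Id3* difference changed sign, to 0.11. With lists cut to equal length it was −0.22 and the states overlapped (exact permutation p = 0.5). The share of all gene windows apart in this measure is not given here.

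The length of chromatin covered by peaks was greater in every DIFF library than in every PROLIF library for 3 of the 4 genes. The share of all gene windows apart in this way is not given here. Covered length was not scaled to the list, and whole lists covered 26.1 to 35.5 Mb in PROLIF and 30.2 to 36.1 Mb in DIFF. For *Id2*, peaks covered 2.07, 1.68 and 1.49 kb in PROLIF and 2.85, 2.90 and 3.78 kb in DIFF (difference 1.43 kb, exact permutation p = 0.1). For *Id1* they covered 4.29, 3.17 and 3.54 kb in PROLIF and 4.44, 4.34 and 5.50 kb in DIFF (difference 1.09 kb, exact permutation p = 0.1), and the difference was 0.721 kb without DIFF replicate 4. For *Id4* they covered 1.94, 2.01 and 1.73 kb in PROLIF and 2.31, 2.40 and 2.42 kb in DIFF (difference 0.48 kb, exact permutation p = 0.1). The *Id3* window, with 6.53, 5.03 and 3.94 kb in PROLIF and 4.72, 4.83 and 5.18 kb in DIFF, overlapped (difference −0.26 kb, exact permutation p = 0.8), and its difference was 0.425 kb without PROLIF replicate 1, whose covered length was the largest. More cells with an open site and a more open site in each cell cannot be told apart in these bulk libraries.

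State-only regions had a peak in all 3 libraries of one state and in none of the other. Of the 43 regions, 2 were PROLIF-only and 1 was DIFF-only, against 1.79% and 3.48% of all merged regions. Both PROLIF-only regions were upstream of *Id3*. A window with 1 or more PROLIF-only regions was found for 11.9% of protein-coding genes, one with 2 or more for 1.61%, and one with 1 or more DIFF-only regions for 24.1%. A missing peak means only that the signal stayed under the threshold of the peak caller.

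*Id3* region 3 (chr4:136110556-136111044, intergenic) lay 32769 bp upstream of the *Id3* start site, and *Id3* region 4 (chr4:136117115-136117512, intergenic) lay 26199 bp upstream of it. Their summit windows are printed because each held one AP-1 site, the capitals in both; AP-1 binds as dimers of FOS and JUN proteins.
Id3 region 3, GRCm38 chr4:136110628-136110828, plus strand: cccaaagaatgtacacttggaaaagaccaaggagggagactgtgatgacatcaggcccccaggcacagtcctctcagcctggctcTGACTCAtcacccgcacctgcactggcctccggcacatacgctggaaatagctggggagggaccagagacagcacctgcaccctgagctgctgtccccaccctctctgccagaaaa
Id3 region 4, GRCm38 chr4:136117198-136117398, plus strand: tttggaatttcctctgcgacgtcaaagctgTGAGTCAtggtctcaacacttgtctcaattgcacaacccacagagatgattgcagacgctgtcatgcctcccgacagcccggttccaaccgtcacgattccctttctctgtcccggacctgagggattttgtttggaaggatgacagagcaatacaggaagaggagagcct
The AP-1 letters TGANTCA were in 31.3% of all PROLIF-only regions, in 4.73% of DIFF-only regions and in 8.21% of all merged regions. In the *Id* windows 7 of 43 regions held them, and 5 of those 7 were not state-only. *Id3* region 4 also held a SMAD box, which 42.3% of all merged regions held.

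Strength within a list was measured as the percentile of the −log10 p of a peak among all peaks of its library, so that 50 is the middle of the list. *Id3* region 3 stood at percentiles 64.2, 51.8 and 43.4 in PROLIF replicates 1, 2 and 4, with folds of 8.05, 6.09 and 5.20 over the local background. *Id3* region 4 stood at 63.9, 51.8 and 58.8, with folds of 8.13, 6.09 and 6.67. Both were therefore peaks of middling strength in proliferating cells.

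The DIFF-only region, *Id2* region 1 (chr12:25082997-25083745, intergenic), lay downstream of *Id2*, 13653 bp from its start site. Its capitals mark TTGGCA, a core element of nuclear factor I (NFI), a family with a known part in astroglial gene expression.
Id2 region 1, GRCm38 chr12:25083387-25083587, plus strand: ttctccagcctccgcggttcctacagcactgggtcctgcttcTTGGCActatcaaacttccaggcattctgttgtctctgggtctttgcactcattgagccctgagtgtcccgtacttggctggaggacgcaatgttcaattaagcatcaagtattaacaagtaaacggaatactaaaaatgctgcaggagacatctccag
The letters TTGGCA were in 32.8% of DIFF-only regions, 19.2% of PROLIF-only regions and 18.3% of all merged regions. *Id2* region 1 stood at percentiles 47.5, 61.9 and 52.2 in DIFF replicates 1, 2 and 4, with 22, 30 and 32 reads at the summit and folds of 4.96, 7.80 and 4.71. Like the *Id3* pair it was of middling strength. All 3 state-only regions kept their class with a q of 0.01 and with lists cut to equal length.

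The 19 regions with a peak in all 6 libraries leaned towards DIFF. In 11 of them every DIFF percentile was above every PROLIF percentile, against 21.1% of all such regions. In 0 of them was every PROLIF percentile higher, against 11.7%, and 8 overlapped. The mean was higher in DIFF in 17 regions and in PROLIF in 2, and the median difference was 7.49 percentile points, against 2.26 over all regions with a peak in all 6 libraries. Ranked by fold over the local background in place of −log10 p, 6 regions were higher in DIFF and 1 in PROLIF. The shares above are for −log10 p, and those of all regions ranked by fold are not given here.

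**Figure D2:**
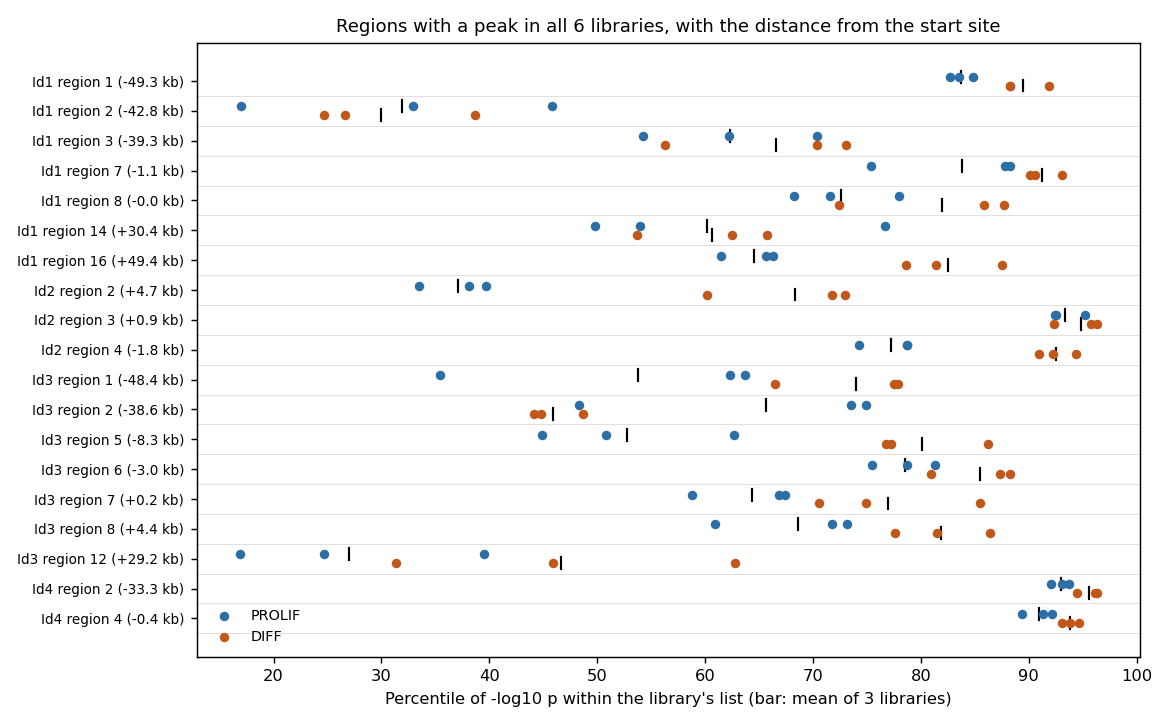
Percentile of −log10 p within its own list for each of the 19 regions with a peak in all 6 libraries (horizontal axis), with 3 points per state and a bar at the mean, and with the distance from the start site beside the name. In 11 regions all DIFF points lie to the right of all PROLIF points, with the widest gap in *Id2* region 2.

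*Id2* held the region with the widest gap between the states. Region 2, which lay 4673 bp downstream of the start site and past the end of the gene, stood at percentiles 33.4, 39.7 and 38.1 in PROLIF and 60.2, 73.0 and 71.8 in DIFF (difference 31.2 points, exact permutation p = 0.1). Region 4, which lay 1764 bp upstream, stood at 78.7, 78.7 and 74.2 in PROLIF and 90.9, 94.4 and 92.3 in DIFF (difference 15.3, exact permutation p = 0.1). The states were well separated in both. The summit window of region 4 is printed because its peaks also differed most in length, with capitals for GGCGCC, the SMAD box CAGAC and the E-box CAGCTG.
Id2 region 4, GRCm38 chr12:25098804-25099004, plus strand: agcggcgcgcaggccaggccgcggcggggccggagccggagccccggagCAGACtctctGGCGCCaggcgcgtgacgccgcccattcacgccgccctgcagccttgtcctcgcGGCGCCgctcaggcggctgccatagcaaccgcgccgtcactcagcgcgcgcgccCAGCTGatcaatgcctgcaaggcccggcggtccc
Region 3, whose summit was 162 bp from the nearest *Id2* start site, was among the strongest peaks of every list, at percentiles 95.2, 92.5 and 92.4 in PROLIF and 92.3, 95.8 and 96.3 in DIFF, and the states overlapped (difference 1.44, exact permutation p = 0.4).

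*Id1* had its strongest promoter peak in region 7, except in PROLIF replicate 4. Region 7 stood at percentiles 88.2, 87.7 and 75.3 in PROLIF and 90.1, 90.6 and 93.1 in DIFF (difference 7.49, or 3.27 without PROLIF replicate 4, exact permutation p = 0.1). Region 8, which lay over the *Id1* start site, stood at 68.2, 71.6 and 78.0 in PROLIF and 87.7, 72.4 and 85.9 in DIFF and overlapped (difference 9.36, exact permutation p = 0.2). At the far end of the window, region 16 in an intron of *Bcl2l1*, which encodes the anti-apoptotic protein BCL-XL, stood at 66.3, 65.6 and 61.5 in PROLIF and 81.4, 78.6 and 87.5 in DIFF (difference 18.0, exact permutation p = 0.1). Region 1, at the promoter of *Mcts2* within an intron of *H13*, also stood apart, at 82.7, 83.5 and 84.9 in PROLIF and 88.2, 88.3 and 91.9 in DIFF. Every DIFF library was thus above every PROLIF library in regions 1, 7 and 16, and not in the start-site region.

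*Id3* had 4 regions apart. Region 5, which lay 8343 bp upstream, stood at percentiles 62.7, 50.8 and 44.9 in PROLIF and 77.2, 76.8 and 86.2 in DIFF (difference 27.3, exact permutation p = 0.1). Region 7, over the first part of the gene, stood at 67.4, 66.8 and 58.8 in PROLIF and 74.9, 70.6 and 85.4 in DIFF (difference 12.6, exact permutation p = 0.1). Region 8, which lay 4371 bp downstream of the start site, stood at 73.2, 71.7 and 60.9 in PROLIF and 77.6, 81.5 and 86.4 in DIFF (difference 13.2, exact permutation p = 0.1). Region 1, the most distal of the window, stood at 62.3, 63.7 and 35.4 in PROLIF and 77.5, 66.5 and 77.9 in DIFF (difference 20.1, exact permutation p = 0.1). The difference was 10.9 in region 1 without PROLIF replicate 4 and 8.42 in region 7 without DIFF replicate 4.

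Against that trend stood *Id3* region 2, which lay 38565 bp upstream. Its percentiles were 74.9, 73.5 and 48.3 in PROLIF and 48.7, 44.1 and 44.8 in DIFF (difference −19.7, exact permutation p = 0.2), so that the states overlapped by PROLIF replicate 4 alone. Its summit pileup over the background of the library was 15.8, 13.6 and 7.38 in PROLIF and 6.33, 7.10 and 4.66 in DIFF, with all PROLIF libraries above all DIFF libraries (exact permutation p = 0.1). The pair of PROLIF-only regions lay next to it, between it and the gene, while region 1 on its far side and region 5 on its near side were higher in DIFF.

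*Id4* had 2 regions in all 6 libraries, and both were strong. Region 4, over the promoter, stood at percentiles 91.3, 89.3 and 92.2 in PROLIF and 93.1, 93.8 and 94.7 in DIFF (difference 2.93, exact permutation p = 0.1). Region 2, in introns of the antisense gene *A330033J07Rik* and of *Gm36346*, stood at 93.1, 92.1 and 93.7 in PROLIF and 96.3, 94.4 and 96.1 in DIFF, with folds of 14.6 to 17.9, the highest of all 43 regions. The gaps between the states were 0.932 percentile points in region 4 and 0.725 in region 2, and with lists cut to equal length both overlapped. Region 5, at the start site of *A330048O09Rik*, lacked a peak in PROLIF replicate 4 only and stood at 27.5 and 44.0 in PROLIF and at 60.8, 62.3 and 67.6 in DIFF.

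At promoters as a whole, the best percentile within 3 kb of a start site gave *Id2* the highest mean, 93.4 ± 1.60 (SD, n = 3) in PROLIF and 94.8 ± 2.19 in DIFF, followed by *Id4*, 90.9 ± 1.44 and 93.9 ± 0.791, *Id1*, 84.7 ± 5.77 and 91.3 ± 1.63, and *Id3*, 78.5 ± 2.93 and 85.5 ± 3.96. Every *Id2* library was above every *Id4* library in PROLIF, while in DIFF the 2 genes overlapped. *Id1* and *Id4* were apart between the states (differences 6.60 and 2.93, exact permutation p = 0.1 each; 3.27 for *Id1* without PROLIF replicate 4), as were 26% of protein-coding genes with a promoter peak in all 6 libraries in the DIFF direction and 4.79% in the PROLIF direction. *Id2* and *Id3* overlapped (differences 1.44 and 7.02, exact permutation p = 0.4 and 0.2). Ranked by fold, *Id1* differed by 0.61 and no longer stood apart (exact permutation p = 0.8), and the differences were −7.56 for *Id2*, −2.06 for *Id3* and −0.11 for *Id4*, so the call at *Id1* and the direction at the other promoters depend on whether the peak is set against all peaks of its list by p or by its ratio to the surroundings.

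To separate the summit from its surroundings, both were recovered in reads. The local read density is the local background that the peak caller set around a peak, divided by the background of the library, so that 1 is the level of the library at large; it counts reads of the peak and of its neighbours too. At the 4 promoters it was higher in every DIFF library than in every PROLIF library. For *Id3* region 7 it was 3.00, 2.64 and 2.16 in PROLIF and 5.52, 4.73 and 4.32 in DIFF (difference 0.91 on the log2 scale, exact permutation p = 0.1). For *Id2* region 3 it was 4.57, 4.88 and 3.19 in PROLIF and 6.60, 8.07 and 5.85 in DIFF (difference 0.71, exact permutation p = 0.1). For *Id1* region 8 it was 3.14, 2.74 and 2.42 in PROLIF and 4.50, 4.37 and 4.11 in DIFF (difference 0.65, exact permutation p = 0.1). For *Id4* region 4 it was 2.29, 2.00 and 1.92 in PROLIF and 2.57, 2.70 and 2.64 in DIFF (difference 0.35, exact permutation p = 0.1).

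These differences lay high among those of the genome, where the median difference was 1.4e-06 on the log2 scale. Regions at the floor in both states show almost no difference. Of the 39231 regions with a peak in all 6 libraries and a resolved density, 99.87% had a smaller difference than *Id3* region 7, 99.6% than *Id2* region 3, 99.4% than *Id1* region 8 and 95.6% than *Id4* region 4. Of the 19 shared *Id*-window regions, 11 had a denser neighbourhood in all DIFF libraries and 0 in all PROLIF libraries, against 12.5% and 12.3% of all shared regions. Regions close together share one neighbourhood, so the 11 are not independent. They were *Id1* regions 7, 8 and 16, *Id2* regions 3 and 4, *Id3* regions 5 to 8, and *Id4* regions 2 and 4.

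**Figure D3:**
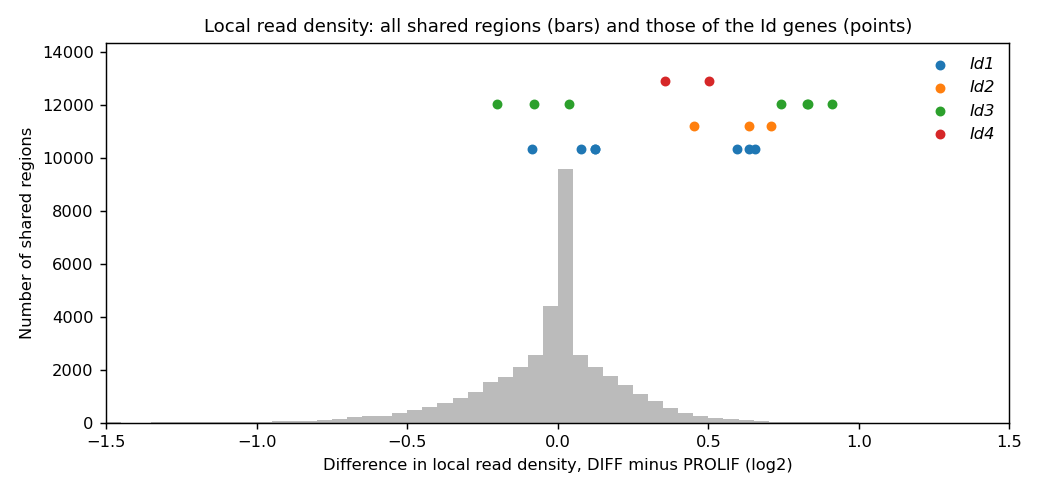
Difference in local read density between DIFF and PROLIF on the log2 scale (horizontal axis) for all 39231 shared regions as a histogram (vertical axis, number of regions, with values past the axis in the outermost bars) and for the 19 shared *Id*-window regions as points, 1 row per gene. The start-site regions of *Id1*, *Id2* and *Id3* lie between 0.65 and 0.91, in the upper tail of the bars.

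**Figure D4:**
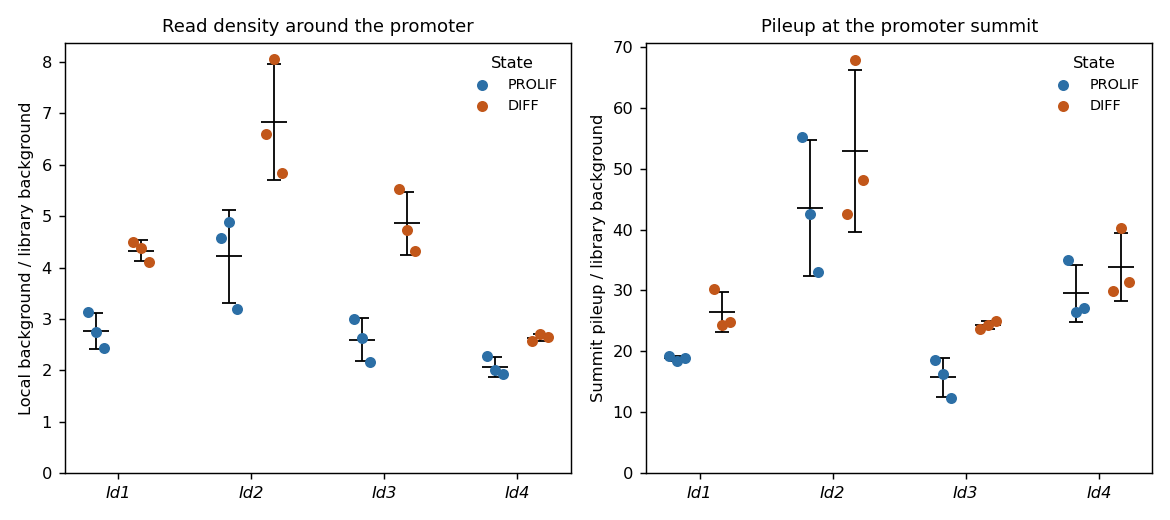
Local background (left) and summit pileup (right) at the promoter region of each gene, both divided by the background of the library, with 3 points per state and the mean ± SD in black. Local density is higher in all DIFF libraries for each gene, while the summit pileups of *Id2* and *Id4* overlap.

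Other *Id3* regions close to the gene were denser in DIFF as well. Region 6, which lay 2985 bp upstream, had local densities of 2.43, 2.20 and 1.79 in PROLIF and 4.07, 3.45 and 3.18 in DIFF (difference 0.74, exact permutation p = 0.1). Regions 5 and 8 differed by 0.83 each, and region 5, which lay 8343 bp upstream, was outside the *Id3* promoter. The 3 distal *Id3* regions 1, 2 and 12 overlapped, with differences of 0.04, −0.20 and −0.08. In the *Id1* window, regions 1, 2, 3 and 14 likewise overlapped, with differences from −0.09 to 0.12, and in the *Id2* window region 2 did, with a difference of 0.45. In *Id1* region 14 and *Id3* region 1 some libraries of both states stood at the floor, so a lower density could not show there. Density was not higher near the start sites alone, since *Id1* region 16, which lay 49407 bp downstream, had 1.00 to 1.03 in PROLIF and 1.48 to 1.59 in DIFF (difference 0.60, exact permutation p = 0.1), and *Id4* region 2, which lay 33306 bp upstream, differed by 0.50.

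Leaving out any 1 library left all 4 promoter differences positive, from 0.56 to 0.75 for *Id1*, 0.52 to 0.83 for *Id2*, 0.78 to 1.02 for *Id3* and 0.30 to 0.43 for *Id4*. The names of the peaks carry input numbers, from 227 to 297 for PROLIF replicates 1 and 4 and DIFF replicate 1, and from 606 to 614 for PROLIF replicate 2 and DIFF replicates 2 and 4; what the numbers stand for was not given in the sources used here. Within the lower and the higher numbers the differences were 0.71 and 0.63 for *Id1*, 0.79 and 0.49 for *Id2*, 1.12 and 0.78 for *Id3*, and 0.30 and 0.42 for *Id4*. Astrocyte markers stood higher in DIFF too. By promoter percentile 3 of 4 were apart in that direction, *Gfap* (67.1 to 71.4 in PROLIF, 85.1 to 90.4 in DIFF), *Aqp4* (95.9 to 96.5 and 98.1 to 99.2) and *S100b* (35.1 to 45.9 and 48.0 to 73.6), as was *Tubb3* among the neuronal markers, and their part in the *Id* values was not tested.

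At the summits, pileup over the background of the library was higher in all DIFF libraries in 8 of the 19 shared regions and higher in all PROLIF libraries in 1, *Id3* region 2, against 6.34% and 17.1% of all shared regions. Over all shared regions the median difference in this measure was −0.11 on the log2 scale, and with the libraries centred on their medians 13 regions were higher in DIFF, as they were without PROLIF replicate 1. The shares above are for uncentred values of all 6 libraries, and those for either setting are not given here. *Id3* region 7 had 18.5, 16.3 and 12.3 times the background in PROLIF and 23.7, 24.3 and 24.9 times in DIFF (difference 0.65 on the log2 scale, exact permutation p = 0.1). *Id1* region 8 had 19.2, 18.4 and 19.0 in PROLIF and 30.3, 24.3 and 24.8 in DIFF (difference 0.48, exact permutation p = 0.1). In both the difference at the summit was smaller than that of the neighbourhood.

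The summits of the 2 strongest promoters overlapped between the states. *Id2* region 3 had 55.2, 42.5 and 33.0 times the background in PROLIF and 42.6, 68.0 and 48.2 in DIFF (difference 0.28, exact permutation p = 0.4). *Id4* region 4 had 35.0, 26.5 and 27.0 in PROLIF and 30.0, 40.2 and 31.4 in DIFF (difference 0.20, exact permutation p = 0.4). In the *Id2* window the summits of regions 2 and 4 were higher in all DIFF libraries. Region 2 had 11.1, 12.6 and 9.48 in PROLIF and 15.1, 26.04 and 15.1 in DIFF (difference 0.72, exact permutation p = 0.1), and region 4 had 28.6, 26.9 and 19.0 in PROLIF and 37.7, 59.5 and 36.3 in DIFF (difference 0.83, exact permutation p = 0.1).

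Peaks also differed in length. Summed over the region, *Id2* region 4 was covered for 560, 369 and 333 bp in PROLIF and 969, 986 and 1034 bp in DIFF (difference 576 bp, exact permutation p = 0.1), and 99.7% of shared regions had a smaller difference. *Id2* region 2 was covered for 141, 159 and 218 bp in PROLIF and 713, 352 and 582 bp in DIFF (difference 376 bp, exact permutation p = 0.1). In both the peaks were longer in every DIFF library. In all, 5 of the 19 regions were longer in every DIFF library and 2 in every PROLIF library, against 11% and 9.35% of shared regions. Without PROLIF replicate 1 the first count was 8, and without PROLIF replicate 4 the second was 4, while the shares are for all 6 libraries. The 2 that were longer in PROLIF were the start-site regions of *Id2* (691, 719 and 697 bp against 478, 624 and 511 bp) and *Id4* (1225, 1370 and 1187 bp against 1178, 1147 and 1136 bp).

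**Figure D5:**
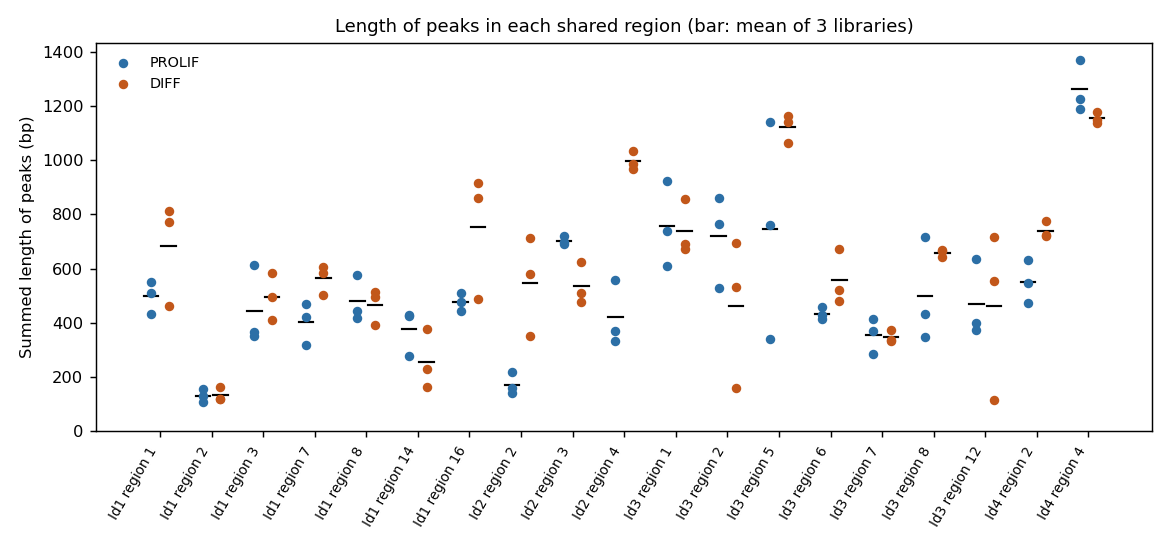
Summed length of the peaks in each of the 19 shared regions in bp (vertical axis), with 3 points per state and a bar at the mean. In *Id2* regions 2 and 4 all DIFF points are above all PROLIF points, and in *Id2* region 3 and *Id4* region 4 they are below.

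Among the 24 regions without a peak in all 6 libraries, 14 had peaks in more DIFF than PROLIF libraries and 8 in more PROLIF libraries, against 52.3% and 37.7% of all such regions, and 2 had as many of each. The 14 include the 6 regions of a single DIFF library, and among the other 18 the counts were 8 and 8. *Id2* region 5, which lay 3958 bp upstream, had peaks in DIFF replicates 1 and 4, at percentiles 15.7 and 26.1. *Id1* region 15, which lay 31550 bp downstream, had peaks in PROLIF replicates 2 and 4, at 37.4 and 3.68. *Id3* region 13, in an intron of *E2f2*, which encodes a transcription factor of the cell cycle, had peaks in all PROLIF libraries, at 35.2, 24.9 and 31.0, and in DIFF replicate 1, at 7.64. The *E2f2* promoter itself (*Id3* region 12) stood at 24.7, 39.5 and 16.9 in PROLIF and at 31.3, 45.9 and 62.7 in DIFF and overlapped.

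GC-rich letters were common in the shared regions. GGCGCC, which reads the same on both strands, was in the summit window of 9 of the 19 regions, against 10.1% of all regions with a peak in all 6 libraries, and in 8 of the 11 with a denser neighbourhood in DIFF, against 10.8% of all regions of that kind. It was present near the promoters of *Id1* (region 7), *Id2* (regions 3 and 4), *Id3* (regions 6 and 8) and *Id4* (region 4). The SP box GGGCGG was in 10 of the 19, against 26.1%, and the SMAD box CAGAC in 8 of the 19, against 40.7%. The median GC content of the 19 summit windows was 61.2%, against 54.2% over all shared regions, and its part in these counts was not tested. The E-box CAGCTG, one of those bound by the factors that ID proteins hold back, was in 6 of the 19, against 21.0%, and neither CAGATG, which was in 14.6% of all shared regions, nor TTGGCA, which was in 17.0%, was in any of them. A match is a description of letters and not a bound site.

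The partners of ID proteins were looked at for comparison. Of 13 genes for E proteins and other basic helix-loop-helix or HES-family factors, 12 had a promoter peak in all 6 libraries. In 3 of the 12 the DIFF percentiles were all higher and in 0 the PROLIF percentiles, close to the 26% and 4.79% of all protein-coding promoters, and the median difference was 2.14 points, against 2.28 over all protein-coding genes. The 3 were *Tcf3*, for the E proteins E12 and E47 (91.8, 86.7 and 86.0 in PROLIF, 97.0, 94.8 and 97.1 in DIFF), *Neurog1*, a proneural factor (difference 12.1), and *Olig1*, an oligodendrocyte lineage factor (difference 4.07). *Tcf4* and *Tcf12* overlapped, with differences of −0.23 and 0.57.

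Of 16 genes of the BMP-SMAD pathway, which induces *Id* genes, all 16 had a promoter peak in all 6 libraries. Among them 4 were higher in all DIFF libraries and 2 in all PROLIF libraries, with a median difference of 2.61 points. The 4 were *Smad1* and *Smad9*, for receptor-activated SMADs (differences 6.34 and 12.1), *Smad6*, for an inhibitory SMAD (67.4, 56.6 and 58.3 in PROLIF, 79.2, 75.7 and 82.7 in DIFF), and *Chrd*, for the BMP antagonist chordin (difference 15.2). The 2 were the ligand genes *Bmp4* (79.3, 68.0 and 60.9 in PROLIF, 49.2, 32.5 and 56.1 in DIFF) and *Bmp7* (difference −7.91). These counts of 4 and 2 of 16 stand beside the 26% and 4.79% of all promoters given above.

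The genes whose promoter percentiles were most like those of each *Id* gene over the 6 libraries were taken by the smallest largest difference in any library. For *Id1* they were *Exoc6b*, *Wdr33* and *Ublcp1* (within 1.25, 1.92 and 1.98 points), for *Id2* *A630089N07Rik*, *Stx2* and *Bbs2* (within 1.10, 1.13 and 1.14), for *Id3* *Ppa1*, *Ndrg3* and *Bptf* (within 2.25, 2.26 and 3.21), and for *Id4* *Nr2f6*, *Ank* and *Ranbp3* (within 1.19, 1.23 and 1.28). No *Id* gene was among the 3 genes nearest to another.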

How the data were processed

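Of 6 ATAC-seq libraries of *Srr2* del/del cultures, described in their labels as biological replicates, 3 were PROLIF and 3 DIFF by label (the treatment labels speak of RNA, although the assay is ATAC-seq). Per the study's methods, the authors removed adapters (Cutadapt, Trimmomatic), mapped to GRCm38 (mm10) by Bowtie2, marked duplicates by Picard, and used MACS2 for narrow peaks (no model, FDR 0.05). Each library has a deposited list of its own. Versions, read extension and any transposase shift are not given in the sources used here, and each can move peak edges. The size of the window for the local background and any control sample are not given either. The local read density depends on both, so how wide a neighbourhood it covers is not known. The deposited lists hold a score, a fold enrichment (a ratio to the local background) and −log10 p-values and q-values. Read totals are not in the lists.

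From these, peaks on assembled chromosomes were used (lines elsewhere were at most 0.357% of a list). Genes came from GENCODE M21 and sequences from GRCm38.p6 and RefSeq. The local background and summit pileup were solved from fold and p under the Poisson model of the caller, leaving out peaks with a −log10 p of 250 or more, and at least 99.9878% of pileups came back within 0.02 of a whole number. The background of a library was percentile 1 of its local backgrounds. Single values were tested by exact permutation (two-sided, over the state labels) and regions by whether the 3 libraries of each state overlapped. Motifs were sought within 100 bp of the strongest summit of a region, on either strand. Scripts were tested on simulated lists. Named were regions within 3 kb of an *Id* start site, state-only regions, the strongest other shared regions, shared regions apart between the states and the 3 most like genes; other regions named were chosen after their values were seen. Members, lists and rules were chosen with earlier results of these data known, and the local density, scaled pileup, peak length and shared-run measures were added after seeing the data. Alternatives were another window, q, list length, overlap, ranking by fold, the replicate block and leaving out each library. Values of some single genes on the lists are not reported here. Tools were matplotlib 3.10.9, numpy 2.4.6, Python 3.11.15, pysam 0.24.0, pandas 2.3.3, samtools 1.23.1 and scipy 1.17.1.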

Additional observations from a re-analysis of the deposited data

How the results depend on the processing

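Counts of regions follow the window and the way a peak is counted. With 25 kb on either side 10 regions had a peak in all 6 libraries and 0 were PROLIF-only, and with 100 kb 29 had a peak in all 6 and 3 were DIFF-only. Where peaks had to cover 50% of a region, 11 were in all 6 libraries, 1 was PROLIF-only and 2 were DIFF-only. Shared regions higher in PROLIF went from 0 to 1 with lists of equal length and by fold, and those higher in DIFF from 11 to 6 by fold. The state difference changed sign for *Id1* peak number with lists of equal length (−0.67), for *Id1* peaks per 10000 with 25 kb (0.0077) and 100 kb (0.16), for *Id3* peak number with 25 kb (1.33) and 100 kb (0.33), for *Id3* peaks per 10000 with 25 kb (0.11), for *Id3* covered length with 25 kb (0.844 kb) and 100 kb (1.02 kb), and by fold for the promoters of *Id2* (−7.56), *Id3* (−2.06) and *Id4* (−0.11). By fold the *Id1* promoter differed by 0.61 and overlapped. For these changes of sign the cause was not tested. Leaving out each library gave ranges of −0.5 to 1.5 for *Id1* peak number, −0.15 to 0.041 for *Id1* peaks per 10000 and −0.87 to 0.43 kb for *Id3* covered length, 1 to 2 DIFF-only regions, 2 to 3 PROLIF-only regions, and 0 to 1 shared regions higher in PROLIF.

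Replicate numbers are shared between the states. Deviations of same-numbered libraries (replicates 1, 2 and 4) correlated at 0.0549, 0.153 and 0.0123 over 39088 regions. PROLIF replicate 2 correlated best with its own number, and PROLIF replicates 1 and 4 with another number, at 0.0614 and 0.0190. Correlations this weak cannot tell whether same-numbered libraries came from the same culture. With the replicate block the rules were looser than those above. A region was state-only where at least 2 same-numbered pairs differed in that direction and none in the other. A shared region was higher in a state where it was higher in every pair. By these rules 5 regions were PROLIF-only, 3 DIFF-only and 1 shared region was higher in PROLIF. Shares of all regions by these rules are not given here. The smallest possible p with the block was 0.25. Of the 14 named state-only and shared regions, 14 kept their call with a q of 0.01, 12 with lists of equal length and 9 by fold. After centring on the median of shared regions, 13 shared regions were higher in DIFF by scaled pileup, 1 was denser in PROLIF (also with the block) and 1 was longer in PROLIF. Shares of all regions after centring are not given here. Depth was not equal between libraries, and the deepest, DIFF replicate 4, held 4 of the 6 regions seen in 1 library.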
